A study of Homo sapiens with 24 samples.

Results

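The question addressed here is whether induction of adenoviral E1A changed the transcriptome of HCT116 oxpl-R cells differently from that of HCT116 cells when both lines were under oxaliplatin. HCT116 is a human colorectal cancer cell line, and HCT116 oxpl-R is 1 derivative line obtained from it by repeated pulses of oxaliplatin, a platinum drug that forms adducts on DNA. Of the 24 samples of the series, 12 were used for this comparison, chosen by their labels: all those that received 25 µM oxaliplatin for 24 h. They form 4 groups of 3 samples: HCT116 oxaliplatin, HCT116 E1A + oxaliplatin, HCT116 oxpl-R oxaliplatin and HCT116 oxpl-R E1A + oxaliplatin. Every group, the groups without doxycycline included, carries a Tet-On E1A transgene, and in the E1A groups 0.5 µg/mL doxycycline was added 3 h before oxaliplatin. No group received doxycycline without carrying the transgene, so that effects of doxycycline and of E1A cannot be told apart. Below, an effect of E1A, or a gene raised by it, means the difference with against without doxycycline. The other 12 samples (control and E1A groups of both lines, without oxaliplatin) share no library with these and were used to look at the same genes. Their E1A groups received 0.5 µg/mL doxycycline as well. The labels call the 3 samples of a group biological replicates without saying whether they were separate experiments, so the p-values measure the spread between these samples.

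E1A is the first protein made by adenovirus after infection. It binds the retinoblastoma family of proteins (RB1, RBL1 and RBL2) and so releases E2F transcription factors, which switch on genes of S-phase entry and DNA replication. It also binds the acetyltransferases EP300 and CREBBP. DNA damage acts on the same switch from the other side: p53 induces CDKN1A (p21), an inhibitor of cyclin-dependent kinases, RB family proteins stay active, and E2F target genes and mitotic genes are repressed.

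The 12 libraries held 26120498 to 37927720 estimated counts over the 33113 genes of the count table. Pearson correlation between replicates of a group was at least 0.941 across 9521 genes. Replicate 1 of the HCT116 oxpl-R oxaliplatin group stood apart, with 1.38% of its counts on genes of the mitochondrial genome against 12.2% to 19.7% in the other 11 libraries. All 10 epithelial markers (EPCAM, KRT8, CDH1 and others) were detected in every library. Of 15 markers of blood, endothelial, connective tissue, liver and glial cells, 10 to 12 stayed below 1 CPM (counts scaled to the library size) in all 3 libraries of a group. Their summed level was 34 to 37.3 CPM in HCT116 oxaliplatin, 35.9 to 50.1 in HCT116 E1A + oxaliplatin, 20.3 to 32.2 in HCT116 oxpl-R oxaliplatin and 23.3 to 60.8 in HCT116 oxpl-R E1A + oxaliplatin cells, most of it from COL1A1.

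The transgene itself, listed as Ad5-E1A, was induced in both lines. In HCT116 cells it stood at 5.49, 6.28 and 6.22 CPM under oxaliplatin alone and at 199, 537 and 494 CPM with doxycycline. The HCT116 oxpl-R values were 11.7, 9.46 and 8.98 CPM without and 537, 549 and 719 CPM with doxycycline. The groups with and without doxycycline did not overlap in either line, and replicate 1 of HCT116 E1A + oxaliplatin was the lowest of the 6 induced libraries. The log2 fold change was 6.09 ± 0.34 (SE) in HCT116 and 5.90 ± 0.34 in HCT116 oxpl-R cells. The difference between these, the interaction of line and doxycycline, was -0.19 ± 0.39 on the log2 scale (unadjusted p = 0.64, edgeR quasi-likelihood test), and between -0.51 and 0.09 when 1 library was left out. This interaction compares fold changes and not levels. In level, the HCT116 oxpl-R libraries lay at or above those of HCT116, both without and with doxycycline. Whether the level of Ad5-E1A had a part in the line differences described below was not tested.

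The interaction was then tested for all genes. A positive interaction means that E1A induction raised a gene more, or lowered it less, in HCT116 oxpl-R than in HCT116 cells. Among the 17942 count-table genes that had a count in at least 1 of the 12 libraries, 2 passed an adjusted p of 0.05 (0.0111%), both with a positive interaction: E2F1, which encodes the transcription factor that E1A frees from RB1, and ASF1B, a histone chaperone of replicating cells. At an unadjusted p below 0.05, 348 genes had a positive (1.94%) and 150 a negative interaction (0.836%). Among the 3153 tested genes after SETP6, measured in the second table, edgeR called 0 (135 at an unadjusted p below 0.05, 4.28%), while DESeq2 called 9. DESeq2 called 29 genes of the count table, and a fit that shared its estimate of the spread over all 24 samples called 26. Of the 20 genes called by both of these fits, 10 were E2F target genes of the list described below (CDC25A, CDT1, DTL, E2F1, E2F8, MCM2, MCM4, MCM5, MCM7 and MYBL2) and 2 were mitotic genes (CDCA8 and FOXM1). ASF1B, CDKN2C, H2AX, IGFLR1, KIFC1, NRGN, OAS3 and PADI3 were the other 8. The E2F list and the list of mitotic genes each had 47 genes in the count table, where 17942 genes were tested. Both lists were chosen with earlier results of these data known. With 1 library left out, E2F1 was called each time, and the number of genes called lay between 1 (without HCT116 oxaliplatin replicate 1 or HCT116 oxpl-R E1A + oxaliplatin replicate 3) and 15 (without HCT116 oxpl-R E1A + oxaliplatin replicate 1). It was 8 without HCT116 oxpl-R oxaliplatin replicate 1, the library low in mitochondrial counts.

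E2F1 (GRCh38, chr20:33675477-33686385, minus strand) was measured at 125, 112 and 122 CPM in the 3 HCT116 oxaliplatin samples and at 147, 124 and 116 CPM in HCT116 E1A + oxaliplatin, so that these groups overlapped. In HCT116 oxpl-R cells it was at 24.5, 20.3 and 20.7 CPM under oxaliplatin alone and at 106, 80.8 and 115 CPM with E1A, with no overlap. E2F1 was thus lowest in the HCT116 oxpl-R oxaliplatin group (-2.47 ± 0.22 on the log2 scale against HCT116 oxaliplatin). With E1A, its 3 values in HCT116 oxpl-R cells lay below the 3 of HCT116 E1A + oxaliplatin and overlapped those of HCT116 oxaliplatin. The log2 fold change with E1A was 0.10 ± 0.21 in HCT116 and 2.20 ± 0.22 in HCT116 oxpl-R cells. The interaction was 2.10 ± 0.29 (SE, n = 3 per group, adjusted p = 0.0055, edgeR). It stayed between 1.99 and 2.24 and was called in all 20 alternatives run.

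ASF1B (chr19:14119512-14136613, minus strand) had the same pattern. It was at 222, 217 and 240.5 CPM in HCT116 oxaliplatin and at 268, 187 and 189 CPM in HCT116 E1A + oxaliplatin cells. In HCT116 oxpl-R cells it was at 34.6, 31.3 and 39.9 CPM without E1A and at 138, 95.9 and 130.4 CPM with E1A, again without overlap, but here the E1A group of HCT116 oxpl-R stayed below all HCT116 samples. The interaction was 1.87 ± 0.31 (adjusted p = 0.032, edgeR). The call was lost without HCT116 oxaliplatin replicate 1 (adjusted p = 0.071), HCT116 E1A + oxaliplatin replicate 3 (0.1) or HCT116 oxpl-R E1A + oxaliplatin replicate 3 (0.11), and with both stricter filters (0.072 and 0.057) and the second table (0.097), while the values lay between 1.78 and 2.06 on the log2 scale.

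The promoters of both genes are shown because E2F1 is itself a known E2F target, regulated through sites bound by E2F and the RB family. The 250 bases upstream of the start site are given 5′ to 3′ on the gene's strand (RefSeq, GRCh38.p14, chr20:33686386-33686635 and chr19:14136590-14136839). Capitals mark matches to the E2F words TTTCCCGC, TTTCGCGC, TTTGCCGC or TTTGGCGC on either strand, and to the CHR element TTTGAA. The CHR element is a motif of cell cycle genes bound by RB family complexes, and by separate complexes with MYBL2 or FOXM1.
E2F1: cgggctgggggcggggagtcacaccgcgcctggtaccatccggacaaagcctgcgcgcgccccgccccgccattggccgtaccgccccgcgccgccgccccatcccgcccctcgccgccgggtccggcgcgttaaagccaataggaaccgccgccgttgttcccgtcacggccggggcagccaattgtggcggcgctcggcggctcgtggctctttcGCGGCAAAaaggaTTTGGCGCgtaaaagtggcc
ASF1B: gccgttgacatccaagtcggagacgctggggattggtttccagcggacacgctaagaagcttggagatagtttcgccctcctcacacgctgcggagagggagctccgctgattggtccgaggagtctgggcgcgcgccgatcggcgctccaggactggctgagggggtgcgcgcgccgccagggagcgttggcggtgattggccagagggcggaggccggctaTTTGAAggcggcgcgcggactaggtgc
E2F1 held 2 E2F words, TTTGCCGC on the opposite strand at -33 to -26 and TTTGGCGC on the same strand at -20 to -13 from the start site, and no CHR word. ASF1B held no E2F word in this window and 1 CHR word at -27 to -22 from the RefSeq start site. By the gene position given above, ASF1B starts inside this window, so the sources differ on its start site. Both kinds of word were chosen after these sequences had been seen, and a match of letters is not a binding site. Promoter entries were found for 41 of the 50 E2F list genes described next and for 45 of the 50 genes of the G2/M list, some with several entries per gene. An E2F word was present in 17 of the 51 entries (33.3%) of the E2F list, against 2.79% of all 35116 entries and 4.13% of the 14054 entries of genes with a mean above 1 CPM. A CHR word was present in 0 of these 51 and in 25 of the 58 entries (43.1%) of the G2/M list, against 13.3% of all entries and 8.72% of those of genes with a mean above 1 CPM.

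The further description rests on a list of 52 E2F target genes of the G1/S transition and replication, of which 50 were measured, all with a mean above 1 CPM. Their median interaction was 1.03 on the log2 scale, against -0.01 over all 12001 genes with a mean above 1 CPM. It was positive for 49 of the 50, and 33 had a positive interaction with an unadjusted p below 0.05, against 2.47% of the 12001 genes. After adjustment over all genes tested only E2F1 passed. In HCT116 oxpl-R cells, E1A raised 31 of the 50 at an adjusted p below 0.05 (against 1.21% of the 12001 genes), and the 3 samples with E1A lay above the 3 without for 43 (against 10.0%). In HCT116 cells 0 of the 50 were called by edgeR and 2 lay above without overlap, against 0.0667% called and 3.06% without overlap of the 12001 genes. The median effect of E1A was 1.22 in HCT116 oxpl-R and 0.14 in HCT116 cells. Since RNA of whole cultures was measured, a change in the share of cells that express these genes and a change in RNA per cell cannot be told apart. Without HCT116 E1A + oxaliplatin replicate 1, the induced library lowest in Ad5-E1A, the median interaction of the list was 0.96. Without HCT116 oxpl-R oxaliplatin replicate 1, the library low in mitochondrial counts, the median interaction of the list was 1.05 and 22 genes rose in HCT116 oxpl-R. The count of risen genes fell to 15 without HCT116 oxpl-R oxaliplatin replicate 2 and to 17 without HCT116 oxpl-R E1A + oxaliplatin replicate 3.

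By role, the interaction was highest for the transcription factors themselves. The roles are parts of the same list, and 1.21% of the 12001 genes were called higher in HCT116 oxpl-R cells. E2F1, E2F2, E2F8 and MYBL2 (B-Myb, which activates mitotic genes) had interactions of 1.33 to 2.10, and all 4 rose with E1A in HCT116 oxpl-R cells (log2 1.47 to 2.20) while their effects in HCT116 cells were 0.04 to 0.19, none called. MYBL2 was at 268, 273 and 291 CPM in HCT116 oxaliplatin and 329.5, 268 and 261 CPM with E1A, and at 53.6, 36.3 and 47.5 CPM in HCT116 oxpl-R oxaliplatin and 134, 114 and 181 CPM with E1A. The E1A group of HCT116 oxpl-R lay above its own oxaliplatin group and below all HCT116 samples (interaction 1.60 ± 0.31, adjusted p = 0.079, edgeR).

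The 11 genes of origin licensing load the replicative helicase in G1 phase. They had a median interaction of 1.12, and 10 of the 11 rose in HCT116 oxpl-R cells (against 1.21% of the 12001 genes). CDT1, the licensing factor that brings the MCM helicase to origins, was at 177, 184 and 166 CPM in HCT116 oxaliplatin and 207, 169 and 164 CPM in HCT116 E1A + oxaliplatin cells. CDT1 in HCT116 oxpl-R cells was at 27.2, 18.2 and 17.7 CPM without and 81.04, 54.8 and 86.9 CPM with E1A. Its interaction was 1.79 ± 0.32 (adjusted p = 0.053, edgeR) and it passed the threshold in 11 of 20 alternatives, the fit to the second table among them. MCM5, a subunit of that helicase, gave 248, 256 and 236 CPM in HCT116 oxaliplatin and 313, 239 and 214 CPM with E1A. MCM5 in HCT116 oxpl-R cells gave 57.7, 44.9 and 45.3 CPM without and 173, 136 and 164 CPM with E1A (interaction 1.63 ± 0.30, adjusted p = 0.053, edgeR, called in 8 of 20 alternatives). For CDT1 and MCM5, as for E2F1, only the HCT116 oxpl-R groups were separated. The other MCM genes ranged from 0.74 (MCM6) to 1.63 (MCM10), with 1.31 for MCM2 and 1.12 for MCM4.

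Recombination and cohesion aside, the remaining roles had lower or more varied values. The 4 helicase cofactors (CDC45 and the GINS genes) had a median interaction of 0.96 and 3 rose in HCT116 oxpl-R cells. For these counts too, the share over the 12001 genes was 1.21%. The 11 genes of polymerases, clamp and fork had a median of 0.73, and 3 rose. PCNA, the sliding clamp and also a p53 target, was not among them: it was at 309, 378 and 293 CPM in HCT116 oxaliplatin, 277, 410.5 and 439.6 CPM in HCT116 E1A + oxaliplatin, 466, 635 and 597 CPM in HCT116 oxpl-R oxaliplatin and 752, 756 and 631 CPM in HCT116 oxpl-R E1A + oxaliplatin cells (interaction 0.13 ± 0.32). RRM2 and TK1, which supply nucleotides for replication, had interactions of 1.08 and 1.12. The 7 chromatin and histone genes had a median of 0.70, and the 4 of recombination and cohesion a median of 1.25, all 4 of them raised in HCT116 oxpl-R cells.

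Cyclins and checkpoint genes spread widest, from -0.02 for TIPIN to 1.83 for DTL, the adaptor of the ubiquitin ligase that degrades CDT1 and p21 in S phase. CCNE2 (cyclin E2) was at 3.64, 9.27 and 14.1 CPM in HCT116 oxpl-R oxaliplatin and at 50.5, 48.3 and 51.3 CPM with E1A, a rise of 2.47 ± 0.45 on the log2 scale (adjusted p = 0.0056, edgeR). In HCT116 cells CCNE2 was at 8.72, 11.5 and 13.99 CPM without and 7.74, 26.7 and 39.6 CPM with E1A (1.11 ± 0.43, not called), replicate 1, the library lowest in Ad5-E1A, being the lowest of these. Its interaction was 1.37 ± 0.60 and did not pass (unadjusted p = 0.033, edgeR). CCNE1 (cyclin E1) lay between 59.9 and 109.6 CPM in the 12 libraries and had an interaction of 0.35 ± 0.33.

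The per-sample level of the list, the mean of log2(CPM + 1) over the 50 genes, placed these effects among the groups. In HCT116 cells it was 5.97, 6.10 and 6.13 with oxaliplatin and 6.06, 6.34 and 6.39 with E1A + oxaliplatin. In HCT116 oxpl-R cells it was 4.70, 4.56 and 4.97 with oxaliplatin and 5.97, 5.79 and 6.05 with E1A + oxaliplatin, against 6.17, 6.34 and 6.38 in their untreated controls. The HCT116 oxpl-R oxaliplatin samples were thus the lowest of all 8 groups. With E1A + oxaliplatin, HCT116 oxpl-R cells lay at 5.79 to 6.05, against 5.97 to 6.13 in HCT116 cells under oxaliplatin alone. All 3 of these samples lay below the 3 HCT116 E1A + oxaliplatin samples, 6.05 being the highest against a lowest of 6.06. Accordingly the difference between the lines, HCT116 oxpl-R against HCT116, had a median of -1.38 on the log2 scale over the list under oxaliplatin alone, with 38 of 50 genes called lower (17.9% of the 12001 genes), and of -0.40 under E1A + oxaliplatin, with 14 called lower (11.4%). The same medians over all 12001 genes were 0.05 and 0.02. CDT1 went from -3.08 to -1.29 and E2F1 from -2.47 to -0.37. These line differences and the interaction come from the same 12 libraries. For each gene the change from the first line difference to the second is the interaction itself, so it is no separate result.

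**Figure D1:**
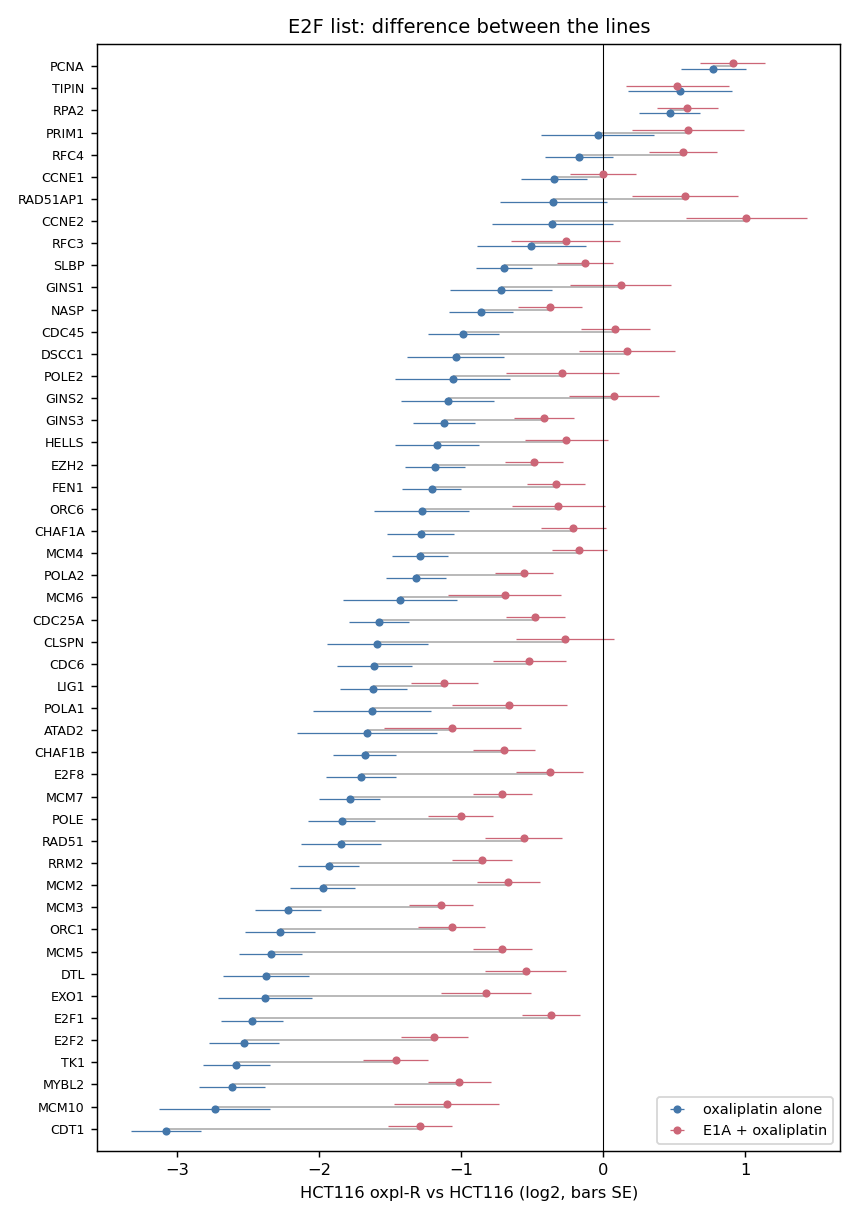
Difference between HCT116 oxpl-R and HCT116 cells (log2, bars SE) for 49 of the 50 genes of the E2F list, under oxaliplatin alone in blue and under E1A + oxaliplatin in red. The red point lies to the right of the blue one for every gene drawn except TIPIN, and over the whole list 14 genes are called lower in HCT116 oxpl-R cells with E1A against 38 without. The shift from blue to red is the interaction itself.

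A list of 52 genes of G2 phase and mitosis, 50 of them measured, gave the same direction with a smaller and less even shift. Its median interaction was 0.73, with 42 of 50 positive, 19 of them at an unadjusted p below 0.05 (against 2.47% of the 12001 genes) and 0 called by edgeR. With E1A, 13 of the 50 rose in HCT116 oxpl-R (against 1.21%) and 0 were called in HCT116 cells (against 0.0667%). The median effect was 0.84 in HCT116 oxpl-R and 0.09 in HCT116 cells. With 1 library left out the first ran from 0.52 (without HCT116 oxpl-R oxaliplatin replicate 2) to 1.16 and the second from 0.0434 (without HCT116 oxaliplatin replicate 1) to 0.32 (without HCT116 oxaliplatin replicate 3). MKI67, the proliferation marker Ki-67, was at 233, 212 and 388 CPM in HCT116 oxaliplatin and 357, 251 and 233 CPM with E1A. MKI67 in HCT116 oxpl-R cells was at 31.6, 31.7 and 45.6 CPM without and 139, 91.2 and 90.6 CPM with E1A (interaction 1.55 ± 0.37, adjusted p = 0.35, edgeR). PLK1, a mitotic kinase, and FOXM1, the transcription factor of G2/M genes, had interactions of 1.29 ± 0.33 and 1.12 ± 0.28, and both rose in HCT116 oxpl-R cells. PLK1 went there from 31.9, 17.8 and 25.8 to 63.8, 50.3 and 75.9 CPM and stayed below HCT116 cells, which had 220.2, 206 and 198 CPM without and 263, 188 and 193 CPM with E1A.

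Some mitotic genes had no positive interaction. CCNB1, the cyclin of mitotic entry, had an interaction of -0.01 ± 0.47, and ECT2, CKAP2, KIF20B, HMMR, DLGAP5, CDC25C and BORA, named after their values were seen, were also at or below 0. The level of the G2/M list in HCT116 oxpl-R cells was 3.93, 3.41 and 4.50 with oxaliplatin and 4.54, 4.47 and 5.15 with E1A + oxaliplatin, so that replicate 3 of the oxaliplatin group reached into the range of the E1A group. Against HCT116 cells, the median of the list was -1.67 under oxaliplatin alone, with 37 of the 50 genes called lower (against 17.9% of the 12001 genes), and -1.01 under E1A + oxaliplatin, with 23 called lower (against 11.4%). Left-out libraries moved its median interaction between 0.49 and 1.07, and the count of genes that rose in HCT116 oxpl-R cells to 6 without HCT116 oxpl-R oxaliplatin replicate 2, 7 without replicate 3 of that group and 5 without HCT116 oxpl-R E1A + oxaliplatin replicate 3.

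Other genes rose with E1A in both lines. With oxaliplatin present, E1A raised 8 genes of the count table in HCT116 cells (0.0446% of those tested) and 133 in HCT116 oxpl-R cells, where 2 fell (0.752% called in all). After SETP6 the calls were 0 in HCT116 (79 at an unadjusted p below 0.05, edgeR) and 18 in HCT116 oxpl-R cells (0.571%). Of the 8 genes, 6 were called in HCT116 oxpl-R cells too: Ad5-E1A, EGR1, JUNB, HSPA1B, HEY1 and LINC00659. GADD45B and ATP6V1G2-DDX39B, a readthrough transcript at low level, were the other two. Without HCT116 oxaliplatin replicate 1 or 2 or HCT116 E1A + oxaliplatin replicate 3, only 2 genes were called in HCT116 cells, and at most 13 with another library left out. For HCT116 oxpl-R cells the count was 71 without HCT116 oxpl-R oxaliplatin replicate 2 and 62 without HCT116 oxpl-R E1A + oxaliplatin replicate 3. Across the 12001 genes, the effects in the 2 lines had a Pearson correlation of 0.26, given as a description since genes are not independent.

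EGR1, an immediate early transcription factor, was at 55.9, 59.03 and 67.996 CPM in HCT116 oxaliplatin and 191, 185 and 202 CPM with E1A. EGR1 in HCT116 oxpl-R cells was at 27.6, 34.6 and 37.1 CPM without and 174, 146 and 204 CPM with E1A. It rose without overlap in both lines (log2 1.66 ± 0.21 and 2.40 ± 0.22), with an interaction of 0.74 ± 0.29 (unadjusted p = 0.018, adjusted p = 1, edgeR). JUNB, an AP-1 subunit, stood at 433, 383 and 387 CPM and with E1A at 1088, 1157 and 1074 CPM in HCT116 cells, and at 228, 184 and 138 and 772, 598 and 964 CPM in HCT116 oxpl-R cells. HSPA1B, the inducible heat shock protein Hsp70, shares reads with its near copy HSPA1A, so its values are uncertain as to the copy; it rose by 1.43 and 1.87 on the log2 scale. HEY1, a NOTCH target, rose by 1.99 and 1.83 from levels near 1 CPM. The interactions of JUNB, HSPA1B and HEY1 (0.63, 0.44 and -0.16) did not pass the test. GADD45B, a stress gene, was called in HCT116 cells alone, with an interaction of -0.92 ± 0.35 that did not pass (unadjusted p = 0.014, edgeR).

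Of the 150 genes called higher in HCT116 oxpl-R cells over both tables, 31 belonged to the E2F list, 13 to the G2/M list and 106 to neither. The genes named next were chosen after their values were seen. Among the 106 were further genes of the cell cycle and replication, such as TICRR (origin firing), FBXO5 (the APC/C inhibitor EMI1), KIFC1 (a mitotic kinesin), CDKN2C (the CDK4/6 inhibitor p18) and H2AX (the histone variant of the DNA damage response), with interactions of 1.504, 1.54, 1.16, 1.33 and 1.38. Others rose in HCT116 oxpl-R cells with smaller interactions, among them BRD2 (0.46), CASP9 (0.03) and SPEN (0.19). COL1A2, a marker of connective tissue cells, was also called, but its values in HCT116 oxpl-R E1A + oxaliplatin cells were 0.088, 0.356 and 13.02 CPM, so that 1 library, replicate 3, carried it. The same replicate held the highest summed level of markers of other cells. The part of this in the counts above was not tested; without that library the E2F list had 17 risen genes.

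The lists of other pathways had mostly smaller medians. Of 32 lists, 28 had a median interaction within 0.5 of 0, and in all lists but the E2F list edgeR called 0 genes. Over all 12001 genes the quartiles were -0.23 and 0.21, and some of these lists had medians outside them. Medians below were those of HIF targets (-0.27, 22 of 29 negative), ribosome biogenesis (-0.25, 31 of 39) and death receptor genes (-0.25, 15 of 19). Medians above included nuclear OXPHOS subunits (0.24, 51 of 68 positive) and intestinal identity genes (0.37, 6 of 10). The 4 above 0.5 were the E2F and G2/M lists, the metallothioneins (0.70 over 4 genes) and the markers of other cell types (0.87 over 4 genes). Over the 13 mitochondrially encoded genes the median was 0.47, all of them positive and 0 at an unadjusted p below 0.05; the library with 1.38% mitochondrial counts belongs to the HCT116 oxpl-R oxaliplatin group. Fanconi anemia and homologous recombination genes, several of which are E2F targets, had a median of 0.31, with 7 of 35 positive at an unadjusted p below 0.05 (against 2.47% of the 12001 genes) and 3 raised in HCT116 oxpl-R cells (against 1.21%). At the same unadjusted threshold (edgeR), 4 of 22 DNA damage checkpoint genes and 4 of 35 AP-1 and immediate early genes were positive.

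**Figure D2:**
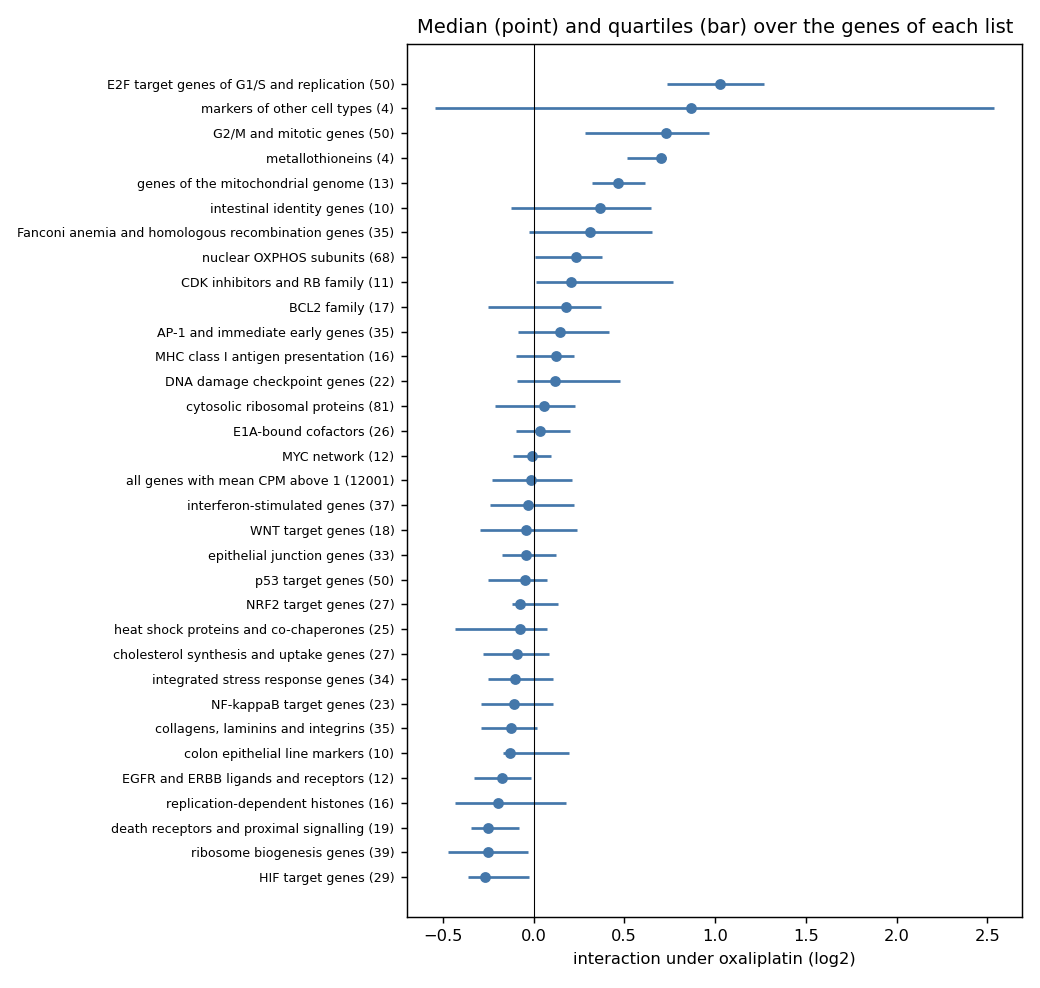
Median (point) and quartiles (bar) of the interaction under oxaliplatin (log2) over the genes of each of 32 lists and over all 12001 genes with a mean above 1 CPM, with the number of genes in brackets. The E2F list has the highest median, 1.03, and all genes together lie at -0.01.

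For the targets of p53, the transcription factor activated by DNA damage, the interaction was near 0. Of 54 p53 target genes 50 had a mean above 1 CPM, and their median interaction was -0.05, with 0 positive and 1 negative at an unadjusted p below 0.05, against 2.47% and 0.592% of the 12001 genes. CDKN1A was at 2136, 1776 and 1723 CPM in HCT116 oxaliplatin and 1633, 1246 and 1216 CPM with E1A, and at 4726, 4167 and 3554 CPM in HCT116 oxpl-R oxaliplatin and 2958, 2915 and 3347 CPM with E1A. The E1A groups lay below the groups without E1A in both lines (-0.47 ± 0.24 and -0.43 ± 0.24, neither called), and the interaction was 0.03 ± 0.34. CDKN1A thus remained higher in HCT116 oxpl-R than in HCT116 cells with E1A (1.16 on the log2 scale, adjusted p = 0.002, edgeR). In the same libraries the line difference of E2F1 was -0.37 ± 0.21 and did not pass the test (adjusted p = 0.26, edgeR). Other genes did pass there: 14 of the 50 E2F list genes and 23 of the 50 G2/M list genes were called lower in HCT116 oxpl-R cells. This compares with 11.4% of the 12001 genes. MDM2, the ubiquitin ligase of p53, had an interaction of -0.31 ± 0.35 and stayed 2.02 higher in HCT116 oxpl-R cells with E1A. The death genes BBC3 (PUMA), PMAIP1 (NOXA) and FAS had interactions of 0.30 ± 0.33, -0.02 ± 0.59 and -0.26 ± 0.42, and the stress cytokine GDF15 one of -0.07 ± 0.34.

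Among the proteins that E1A binds, RB1 had an interaction of -0.01 ± 0.36 and EP300 one of 0.36 ± 0.43. RBL1 (p107), an E2F target, was at 2.88, 3.46 and 6.10 CPM in HCT116 oxpl-R oxaliplatin and at 9.53, 7.87 and 8.10 CPM with E1A (interaction 0.91 ± 0.49, unadjusted p = 0.078, edgeR). The survival genes BCL2L1 and MCL1, the growth regulators MYC and ERBB2 and the adhesion gene CDH1 had interactions between -0.31 and -0.17. The interferon and inflammatory genes ISG15, NFKBIA and CXCL8 and the stress factors ATF3 and DDIT3 lay between -0.49 and -0.05, and IFIT1 at -0.91 ± 0.67 from a level near 2 CPM. None of these was called by edgeR, and the interferon, NF-kappaB and stress response lists had medians of -0.03, -0.11 and -0.10.

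In the 12 samples without oxaliplatin the same interaction was small for these genes. In HCT116 cells, however, Ad5-E1A was higher there, with no overlap. Its raw counts, not scaled to library size, were 22235, 21659 and 21179 in HCT116 E1A cells. They were 5687, 15715 and 14644 in HCT116 E1A + oxaliplatin cells. The HCT116 oxpl-R counts were 21976, 15312 and 26098 with E1A and 18326, 16964 and 26996 with E1A + oxaliplatin. Whether the Ad5-E1A level had a part in this contrast was not tested. E2F1 was at 83.2, 79.2 and 97.5 CPM in HCT116 control and 118, 115 and 107 CPM in HCT116 E1A cells, and at 86.6, 103 and 97.8 CPM in HCT116 oxpl-R control and 168, 120 and 131 CPM in HCT116 oxpl-R E1A cells. The E1A groups lay above the controls in both lines, and the interaction was 0.18 ± 0.20. For ASF1B it was 0.08 ± 0.19. The E2F list had a median interaction of 0.14. It was positive for 46 of the 50 genes and negative for 4, the direction seen under oxaliplatin, against 5935 positive of the 12000 genes with a mean above 1 CPM. For 0 of the 50 was it positive at an unadjusted p below 0.05 (against 0.742%). The median effect of E1A on the list was 0.08 in HCT116 and 0.20 in HCT116 oxpl-R cells, with 3 genes up at an unadjusted p below 0.05 in HCT116 (against 7.49%) and 13 in HCT116 oxpl-R cells (against 5.8%). The G2/M list had 0.11. Of 18264 genes 3 were called (0.0164%), NSUN5P1, NRP2 and DSP-AS1, none of them a member of the E2F or G2/M list. Without HCT116 oxpl-R E1A replicate 3 the count was 7.

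Whether the interaction with oxaliplatin differed from that without was tested over all 24 samples. edgeR called 0 of 19452 genes, with 533 at an unadjusted p below 0.05 (2.74%, 392 of them positive), and DESeq2 called 10. E2F1 came closest, with a difference of 1.94 ± 0.34 on the log2 scale and an adjusted p of 0.052 (edgeR), followed among the genes described here by ASF1B at 1.80 ± 0.35 (adjusted p = 0.14, edgeR) and CDT1 at 1.95 ± 0.39 (adjusted p = 0.15, edgeR). Over the E2F list the median difference was 0.86, with 24 of 50 genes positive at an unadjusted p below 0.05 against 2.31% of the 12001 genes, and over the G2/M list 0.57. Without HCT116 E1A + oxaliplatin replicate 1, the library with the least Ad5-E1A of the induced ones, 5 genes passed. It was 3 without HCT116 oxpl-R E1A replicate 1 or HCT116 oxpl-R E1A + oxaliplatin replicate 2, 2 without HCT116 oxpl-R oxaliplatin replicate 1 and 1 without replicate 3 of that group.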

How the data were processed

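RNA-seq values of 24 samples of 2 cell lines were used. Per the labels and the study's methods, the authors trimmed reads with Trimmomatic, quantified them with Salmon 1.6.0 against GENCODE release 47 (GRCh38) and summarised transcripts to genes with tximport 1.34.0. The authors deposited a table of estimated counts per gene, which ends at SETP6, and a second table, whose name says TPM but whose columns sum to nearly the same totals as the counts. It was read as length-scaled estimated counts and used only for the 4854 genes after SETP6. Both were rounded to whole numbers, 1 incomplete last line per table was left out, and columns without a sample numbered 0.

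Genes with any count in the 12 samples with oxaliplatin were fitted with edgeR 4.0.16 in R 4.3.3 (TMM normalization, quasi-likelihood F test), with 1 mean per group and no covariate, and p-values were adjusted by Benjamini-Hochberg over all genes of a table. A gene was called at an adjusted p below 0.05. The interaction is the log2 effect of doxycycline in HCT116 oxpl-R minus that in HCT116. The SE is the log2 value divided by the square root of F. Levels are CPM (counts scaled to the TMM-adjusted library size), and lists were described over genes with a mean above 1 CPM. Without replication of the lines themselves, the comparison of lines is one of 2 cell lines. Library totals were 26120498 to 37927720 counts. The SE reflects the spread between replicates as well as depth, and edgeR's common dispersion was 0.0913 with and 0.0462 without oxaliplatin. The procedure was also run on simulated counts with 1 common mean per gene, in which only the HCT116 oxpl-R E1A + oxaliplatin group was changed. These counts held no line differences and no outlying library, so that run cannot show how the procedure fares with either. Alternatives were RLE normalization, DESeq2 1.42.0, other filters, all 24 samples in 1 fit, a replicate block, the second table and each sample left out. Genes of the mitochondrial genome were left out in 1 alternative chosen after seeing the data.

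Genes were named if called with at least 50 counts (up to 15 in each direction), if called within a list, or if among 26 genes fixed in a list. Others are said to be chosen by their values or serve as examples of a list. Members and lists were chosen with earlier results of these data known. Promoter sequences are from RefSeq (GRCh38.p14) and gene positions from GENCODE release 44. The values of 1 gene of the E2F list are not reported here, though it counts in the list's numbers.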

Additional observations from a re-analysis of the deposited data

Results flagged for a closer look

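These genes had an effect of E1A induction that differed between the lines by the edgeR test of the difference itself. Under oxaliplatin these were E2F1, with a difference of 2.10 on the log2 scale, and ASF1B, with 1.87, both described above.

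In the samples without oxaliplatin 3 genes differed. NRP2, a neuropilin receptor, was at 1.71, 1.75 and 1.78 CPM in HCT116 control and 6.14, 8.12 and 5.81 CPM in HCT116 E1A cells, whereas in HCT116 oxpl-R cells it was at 65.2, 58.01 and 53.6 CPM without and 52.05, 49.97 and 41.04 CPM with E1A. E1A groups were thus higher than control in HCT116 and lower in HCT116 oxpl-R cells, and the line difference was -2.22 (adjusted p = 0.00018, edgeR). DSP-AS1, an antisense transcript at the desmoplakin gene whose reads may be hard to assign, was at 1.37, 1.14 and 1.93 CPM in HCT116 control and 23.98, 19.2 and 26.4 CPM in HCT116 E1A cells. In HCT116 oxpl-R cells it was at 1.49, 2.04 and 1.73 CPM without and 5.62, 6.44 and 8.18 CPM with E1A, a line difference of -2.01 (adjusted p = 0.033, edgeR). NSUN5P1, a pseudogene that shares sequence with NSUN5, was at 0 in all HCT116 E1A and all HCT116 oxpl-R control samples, at 2.78, 1.61 and 3.21 CPM in HCT116 control and at 1.83, 2.22 and 4.39 CPM in HCT116 oxpl-R E1A cells. Its fitted difference of 18.53 rests on groups at 0 and is neither a size nor a bound.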

How the results depend on the processing

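The interaction under oxaliplatin, 2 called genes, gave 6 calls with RLE normalization, 29 with DESeq2, 1 with filterByExpr, 1 with at least 10 counts in every sample, 26 with all 24 samples in 1 fit and 6 without the genes of the mitochondrial genome. Leaving out 1 library gave 1 to 15. After SETP6 DESeq2 called 9 in place of 0. In HCT116 cells DESeq2 called 16 genes in place of 8 and left-out libraries gave 2 to 13; in HCT116 oxpl-R cells these were 255 in place of 135 and 62 to 175. Without oxaliplatin DESeq2 called 10 in place of 3, with 2 to 7 when 1 library was left out. The difference of the interactions gave 10 calls with DESeq2, 1 with filterByExpr and 0 to 5 with 1 library left out. The median effect of E1A over the E2F list in HCT116 oxpl-R cells lay between 1.07 and 1.42 with 1 library left out. The cause was not tested.

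The main fit did not pair samples by replicate number. With oxaliplatin 1 of 6 pairs of groups had all 3 correlations of same-numbered samples above 0.1 (range -0.18 to 0.57). Without oxaliplatin 0 of 6 did (-0.44 to 0.68). Differently numbered samples were not compared in this way, so these correlations cannot decide whether the numbers pair the samples. With the replicate number as a block, 6 genes were called for the interaction and 1 for the difference of the interactions.

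The interaction changed sign for genes near 0: under the block for CCNB1 (0.0381), PMAIP1 (0.11) and RB1 (0.0193), and in the second table for CCNB1 (0.00), CXCL8 (0.0088), GDF15 (0.0168) and ISG15 (0.0305). With 1 library left out it ranged over both signs for ATF3 (-0.22 to 0.0528), Ad5-E1A (-0.51 to 0.0938), CCNB1 (-0.37 to 0.25), CDH1 (-0.30 to 0.0835), CDKN1A (-0.0725 to 0.19), CXCL8 (-0.41 to 0.13), EP300 (-0.0223 to 0.73), FAS (-0.51 to 0.10), GDF15 (-0.23 to 0.21), ISG15 (-0.23 to 0.20), LINC00659 (-0.21 to 0.51), NFKBIA (-0.22 to 0.14), PCNA (-0.0411 to 0.26), PMAIP1 (-0.47 to 0.40) and RB1 (-0.22 to 0.18).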
